A study of Mus musculus with 96 samples.

Results

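The Hox genes encode homeodomain transcription factors that lie in 4 clusters in the mouse genome, Hoxa on chromosome 6, Hoxb on chromosome 11, Hoxc on chromosome 15 and Hoxd on chromosome 2. All array clusters that carried a single gene symbol of the form Hoxa, Hoxb, Hoxc or Hoxd followed by a number were taken. This gave 36 genes out of 28310 clusters on the array, each with 1 such cluster. The 36 genes were 10 of the Hoxa, 9 of the Hoxb, 9 of the Hoxc and 8 of the Hoxd cluster. Hoxb8 shared its cluster with Hoxb7 and Hoxd13 was named on only one of the array formats, so neither was a member.

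Within each cluster the genes are numbered by paralog group from the 3′ end, and genes of the same number in different clusters are copies of one ancestral gene. In the embryo the low numbers are switched on first and furthest forward, with borders at the segments of the hindbrain, and the high numbers are used in the spinal cord, trunk and limbs. The forebrain and midbrain form ahead of these borders, and parts of the pons and medulla keep Hox transcripts in the adult.

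Brains came from 16 adult male mice aged 14 weeks, 8 of the strain C57BL/6J and 8 of NOD/ShiLtJ. By the labels every NOD/ShiLtJ mouse came from a larger litter than any C57BL/6J mouse, so litter size and strain cannot be told apart. In each strain 4 mice had received clozapine, an antipsychotic drug, at 4 mg/kg into the peritoneum, and 4 had received the vehicle, 0.9% saline, and all were killed 3 h later. Each mouse gave 3 samples. The whole brain sample was an undivided hemisphere, and forebrain and hindbrain were cut from the opposite side. The cerebellum had been taken off, the olfactory bulbs stayed attached, and the hindbrain was scooped out with forceps. RNA of each of the 48 samples was put on an Affymetrix 1.1ST array and again on a 1.0ST array, so both formats measured the same RNA and are not independent. All values below are log2 expression values of the 1.1ST arrays unless the 1.0ST is named. Hox genes are not ranked by level, because probes differ in affinity. The background measure below does set levels against those of other genes and shares this limit.

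Markers set the tissue against its label. The 8 measured markers of medulla and pons and all 9 of midbrain were called higher in hindbrain than in forebrain. The 5 measured markers of telencephalon were called lower. Of all clusters, 27.5% were called higher and 19.7% lower. Without surrogate variables, which are explained below, the marker counts were 7, 8 and 5, where 33.1% of all clusters were higher and 32.5% lower. The samples called hindbrain therefore carried midbrain transcripts too. Slc6a5, the glycine transporter of brainstem and spinal neurons, ranged from 5.05 to 8.15 in forebrain and from 9.88 to 11.45 in hindbrain. Gabra6, a marker of cerebellar granule cells, was above 7 in 8 arrays. Of cerebellum markers 3 of 8 were called higher in hindbrain, near the share of all clusters, and 7 of 8 without surrogate variables. Of meninges and fibroblast markers 4 of 7 were called higher, and 6 of 7 without surrogate variables. Of choroid plexus markers 5 of 6 were called lower, and 4 of 6 without surrogate variables. The part of these tissues in the Hox values was not tested. The whole brain of mouse DD656 and the forebrain of mouse DD678 stood apart in brainstem markers, and counts without them are given where they differ. In tissue of mixed cells, fewer cells of a type and less RNA per cell cannot be told apart.

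The stretches that lie just before the transcription start of 4 members are shown because these members took different places in the regional comparison below. Hoxa5, Hoxa2 and Hoxb4 were higher in hindbrain, and Hoxa9 was not called. They are RefSeq sequences of build GRCm38.p6, each 250 bases long, on the strand of the gene. Capitals mark a match to a motif searched on both strands, which was TGATNNAT, a site of Pbx and Hox partners, in Hoxa2, and AGGTCA, a core site of retinoic acid receptors, in Hoxb4. The places are chr6:52204588-52204837, minus strand, for Hoxa5, chr6:52164832-52165081, minus strand, for Hoxa2, chr11:96318017-96318266, plus strand, for Hoxb4 and chr6:52227371-52227620, minus strand, for Hoxa9.
Hoxa5: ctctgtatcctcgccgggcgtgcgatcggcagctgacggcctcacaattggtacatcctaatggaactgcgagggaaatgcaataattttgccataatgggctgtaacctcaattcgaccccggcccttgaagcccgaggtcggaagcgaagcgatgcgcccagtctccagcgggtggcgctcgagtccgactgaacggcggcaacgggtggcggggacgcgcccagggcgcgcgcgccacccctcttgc
Hoxa2: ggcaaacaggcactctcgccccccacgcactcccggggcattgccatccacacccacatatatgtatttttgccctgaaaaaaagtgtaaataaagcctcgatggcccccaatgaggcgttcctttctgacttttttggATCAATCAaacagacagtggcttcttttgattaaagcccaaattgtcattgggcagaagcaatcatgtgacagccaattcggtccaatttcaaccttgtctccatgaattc
Hoxb4: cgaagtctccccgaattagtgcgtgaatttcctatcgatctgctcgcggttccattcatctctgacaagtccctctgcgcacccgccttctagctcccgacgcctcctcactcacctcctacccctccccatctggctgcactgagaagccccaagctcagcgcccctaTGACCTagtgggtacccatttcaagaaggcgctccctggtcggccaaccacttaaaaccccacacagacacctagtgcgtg
Hoxa9: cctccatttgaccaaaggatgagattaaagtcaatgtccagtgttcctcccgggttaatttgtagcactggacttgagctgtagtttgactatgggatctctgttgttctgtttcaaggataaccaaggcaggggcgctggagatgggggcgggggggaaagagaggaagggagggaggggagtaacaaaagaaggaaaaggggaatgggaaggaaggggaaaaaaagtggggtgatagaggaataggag
Promoters of 20 of the 36 members were found in the RefSeq table. TGATNNAT was present in 3 of them, Hoxa2, Hoxb1 and Hoxd11, and in 7.68% of all 32851 promoters of the same length. AGGTCA was present in 6, Hoxb4, Hoxc4, Hoxd3, Hoxd4, Hoxd8 and Hoxd10, and in 14% of all promoters. Hoxa5 held 28 CG dinucleotides, Hoxb4 held 14, Hoxa2 held 6 and Hoxa9 held 3, where the median of all promoters was 6. A match describes the letters and is not evidence of binding.

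The Hox clusters also hold microRNA genes, and mir-10a lies just before Hoxb4 on the same strand. The mature RefSeq sequences of both copies are shown because their array clusters sit among the members, with the seed, bases 2 to 8, in capitals. They lie at chr11:96317186-96317208, plus strand, for miR-10a-5p and at chr2:74726074-74726096, plus strand, for miR-10b-5p in GRCm38.p6.
mmu-miR-10a-5p: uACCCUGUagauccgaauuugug
mmu-miR-10b-5p: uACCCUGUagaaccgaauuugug
Both have 23 bases and the same seed, and they differ by 1 substitution, U12A, counted from the 5′ end with the base of miR-10a-5p first. Mir10a ranged from 3.02 to 3.30 in hindbrain and from 2.95 to 3.31 in forebrain, and Mir10b from 2.94 to 3.51 and from 2.94 to 3.19. Neither was above background in any hindbrain, with the measure of background given further on. What the clusters read was not examined, so these values are given for the array's microRNA genes and not for the mature forms.

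The first question was whether Hox genes differed between hindbrain and forebrain, and in which paralog groups. Of the 15 Hox genes of paralog groups 2 to 6, 14 were called higher in hindbrain with and without the correction described below. The differences of the members in groups 7 to 13 were small and mostly below 0. Over the 15 genes of groups 2 to 6 the mean difference between hindbrain and forebrain had a median of 0.56 and ran from 0.08 to 1.29, and over the 19 genes of groups 7 to 13 it had a median of -0.05 and ran from -0.15 to 0.07. Of the 36 genes, 18 passed FDR 0.05 in the limma fit with 5 surrogate variables, all of them higher in hindbrain, where 27.5% of all clusters were called higher and 19.7% lower. Of these 18, 14 belonged to groups 2 to 6, which were all of those groups but Hoxc6. The fitted difference of the 36 had a median of 0.11, and that of all clusters was 0.02.

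The calls depended on the surrogate variables, which are patterns estimated from the arrays and removed in the fit. Without them, 15 members were called higher, the same 14 and Hoxa7, and 7 were called lower, Hoxc8, Hoxd9, Hoxa10, Hoxd10, Hoxc12, Hoxa13 and Hoxc13, where 33.1% of all clusters were called higher and 32.5% lower. Those 14 were called higher in each of the 16 fits without surrogate variables that left out 1 mouse. Hoxb1, Hoxa11 and Hoxd12 were called only with surrogate variables, and the mean differences behind their calls were 0.026, 0.010 and -0.0023. With surrogate variables the count fell to 2 without mouse DD676. No share of all clusters is given for the fits that left out a mouse. Whether the calls of other clusters fell alike therefore cannot be told.

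**Figure D1:**
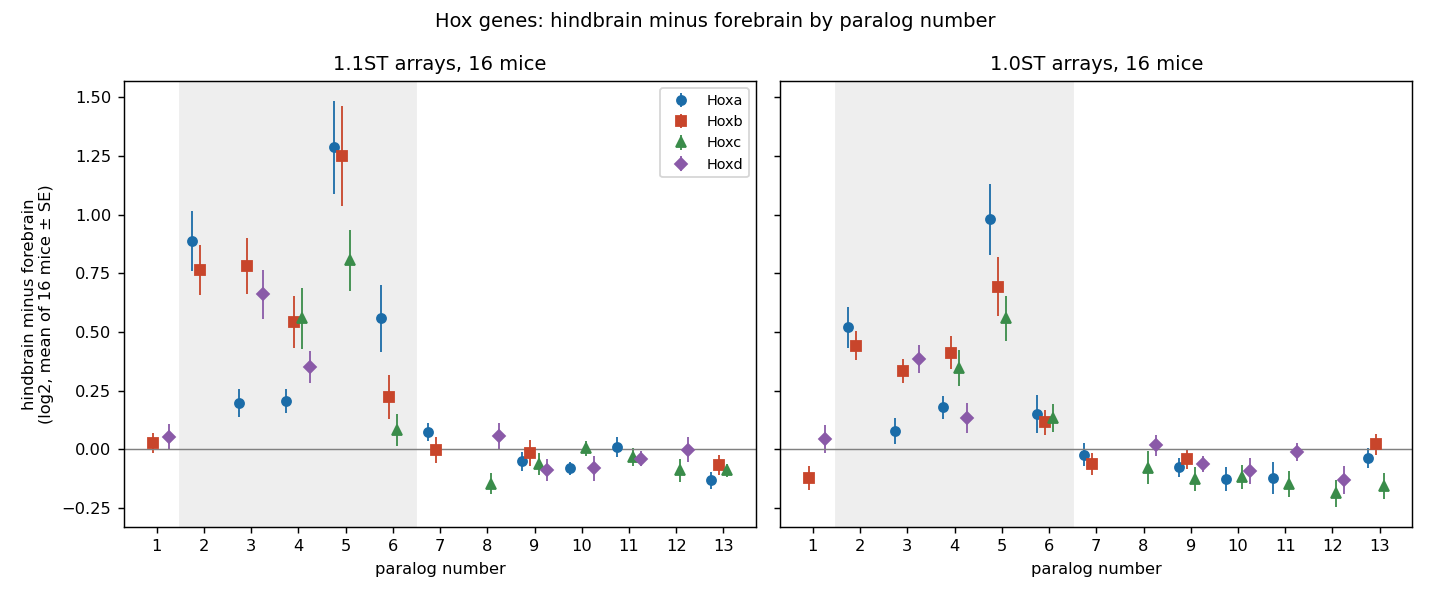
Hindbrain minus forebrain (log2, mean ± SE of 16 mice) of each of the 36 Hox genes against its paralog number, on the 1.1ST arrays (left) and the 1.0ST arrays (right), with a colour and shape for each cluster and paralogs 2 to 6 shaded. The shaded genes lie above 0 in both panels, up to 1.29 on the 1.1ST, where paralogs 7 to 13 lie between -0.15 and 0.07.

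Across the 36 genes, Spearman's rho of paralog number with the mean difference was -0.77, and with the fitted difference -0.68. Genes are not independent replicates and neighbours in a cluster can share regulation, so this is a description. The medians by paralog number were 0.04 for number 1, 0.83 for 2, 0.66 for 3, 0.45 for 4, 1.25 for 5, 0.22 for 6 and 0.04 for 7. From number 8 to 13 the medians lay between -0.09 and -0.03. Of the 15 genes of groups 2 to 6, 12 were above background in no forebrain, by the measure of background given below, so the sizes of their differences are limited by the background and their order among genes was not measured.

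Group 5 genes pattern the neck and upper trunk. Hoxa5, needed in the embryo for the neck, the lung and brainstem respiratory circuits, ranged from 4.45 to 4.86 in forebrain with a median of 4.67 and from 4.68 to 7.18 in hindbrain with a median of 5.96. The hindbrain was higher in 15 of 16 mice, by 1.29 ± 0.79 on average (SD, n = 16). The fitted difference was 0.86 (SE 0.23, limma FDR 0.00114). Most hindbrains lay above every forebrain, and the lowest hindbrains lay among the forebrains.

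Hoxb5, a gene of vagal neural crest and caudal hindbrain, had a forebrain range of 4.40 to 4.86 with a median of 4.59 and a hindbrain range of 4.79 to 7.30 with a median of 5.76. The mean difference was 1.25 ± 0.85 (SD, n = 16), with the hindbrain higher in 15 of 16 mice and limma FDR 0.00155. Hoxc5 ranged from 4.08 to 4.65 in forebrain and from 4.28 to 6.16 in hindbrain, with medians of 4.40 and 5.10, and its mean difference of 0.81 ± 0.52 (SD, n = 16) had limma FDR 0.000344. In all 3 genes of the group the hindbrains were spread far more widely than the forebrains.

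Group 2 holds the genes with the most forward borders in the hindbrain of the embryo. Hoxa2, which gives the second branchial arch its identity, had medians of 4.14 in forebrain, from 3.80 to 4.51, and 4.94 in hindbrain, from 4.36 to 6.13. It was higher in hindbrain in 16 of 16 mice, by 0.89 ± 0.51 (SD, n = 16, limma FDR 0.000565). Its 250 bases printed above carry the Pbx and Hox motif.

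Hoxb2, which acts in the facial motor neurons, ranged from 3.88 to 4.46 in forebrain with a median of 4.22 and from 4.48 to 5.74 in hindbrain with a median of 4.94. The mean difference was 0.77 ± 0.43 (SD, n = 16, limma FDR 0.000192). Hoxb2 was the only 1 of the 36 members whose 16 hindbrains all lay above the 16 forebrains, a pattern of 4.8% of all clusters. On the 1.0ST no member had it.

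Group 3 genes pattern the hindbrain that gives rise to the ninth cranial nerve and, in the branchial arches, the thymus and parathyroid. Hoxb3 ranged from 5.54 to 5.87 in forebrain with a median of 5.68 and from 5.85 to 7.35 in hindbrain with a median of 6.43, a mean difference of 0.78 ± 0.48 (SD, n = 16, limma FDR 0.000327). Hoxd3 ranged from 4.81 to 5.19 in forebrain with a median of 5.00 and from 5.18 to 6.50 in hindbrain with a median of 5.64, a mean difference of 0.66 ± 0.42 (SD, n = 16, limma FDR 0.000268). Both were higher in 16 of 16 mice, with forebrain and hindbrain ranges that met only at their ends. The member cluster of Hoxa3 moved less, from a median of 4.55 to 4.74, and was higher in 12 of 16 mice (mean difference 0.20 ± 0.24, SD, n = 16, limma FDR 0.0364). A cluster that Hoxa3 shared with Hoxaas2, which is no member, had a mean difference of 0.37. It was higher in hindbrain in 16 of 16 mice (limma FDR 0.00028). A cluster that Hoxd3 shared with Hoxd3os1, also no member, had -0.14 and was higher in 3 of 16 (limma FDR 0.0919).

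Group 4 genes mark the caudal hindbrain and upper spinal cord. Hoxc4 ranged from 3.83 to 4.73 in forebrain with a median of 4.03 and from 4.15 to 5.70 in hindbrain with a median of 4.51 (mean difference 0.56 ± 0.52, SD, n = 16, limma FDR 0.000695). Hoxb4 ranged from 4.35 to 4.76 with a median of 4.59 and from 4.45 to 5.93 with a median of 5.08 (mean difference 0.54 ± 0.44, SD, n = 16, limma FDR 0.00521). For both genes the hindbrain was higher in 14 of 16 mice, and the ranges overlapped.

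Hoxd4 had medians of 4.56 in forebrain and 4.88 in hindbrain and was higher in 16 of 16 mice (mean difference 0.35 ± 0.27, SD, n = 16, limma FDR 0.00426). Hoxa4 ranged from 5.78 to 6.28 in forebrain and from 5.95 to 6.54 in hindbrain, with medians of 6.09 and 6.29 (mean difference 0.21 ± 0.20, SD, n = 16, limma FDR 0.0165). The regions overlapped for Hoxa4 over most of their range.

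Group 6 genes are used mainly in the trunk. Hoxa6 ranged from 4.43 to 4.90 in forebrain with a median of 4.59 and from 4.48 to 6.43 in hindbrain with a median of 5.11 (mean difference 0.56 ± 0.57, SD, n = 16, limma FDR 0.0114). Hoxb6 had medians of 4.21 and 4.31 and reached 5.39 in hindbrain (mean difference 0.22 ± 0.37, SD, n = 16, limma FDR 0.0206). Hoxc6 had a mean difference of 0.08 and did not pass (limma FDR 0.231). The called genes of this group rose in 11 to 12 of the mice.

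Beyond group 6 the values of the members lay close together. Hoxb7 had medians of 5.36 in forebrain and 5.33 in hindbrain, and Hoxb9 had 5.14 and 5.16. Their mean differences were -0.0014 ± 0.22 for Hoxb7 and -0.015 ± 0.22 for Hoxb9 (SD, n = 16). Hoxa7 was called at limma FDR 0.000453 on a mean difference of 0.07 ± 0.15 (SD, n = 16), with medians of 4.49 and 4.59. The cluster shared by Hoxb8 and Hoxb7, which is no member, did differ. It ranged from 3.47 to 4.02 in forebrain and from 3.61 to 6.57 in hindbrain and was higher in hindbrain in 14 of 16 mice. Its mean difference was 0.60 ± 0.76 (SD, n = 16, limma FDR 0.0146, and 0.00012 without surrogate variables). On the 1.0ST its mean difference was 0.38, with the hindbrain higher in 12 of 16 mice. There it passed without surrogate variables (limma FDR 0.000685) and not with them (limma FDR 0.214).

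**Figure D2:**
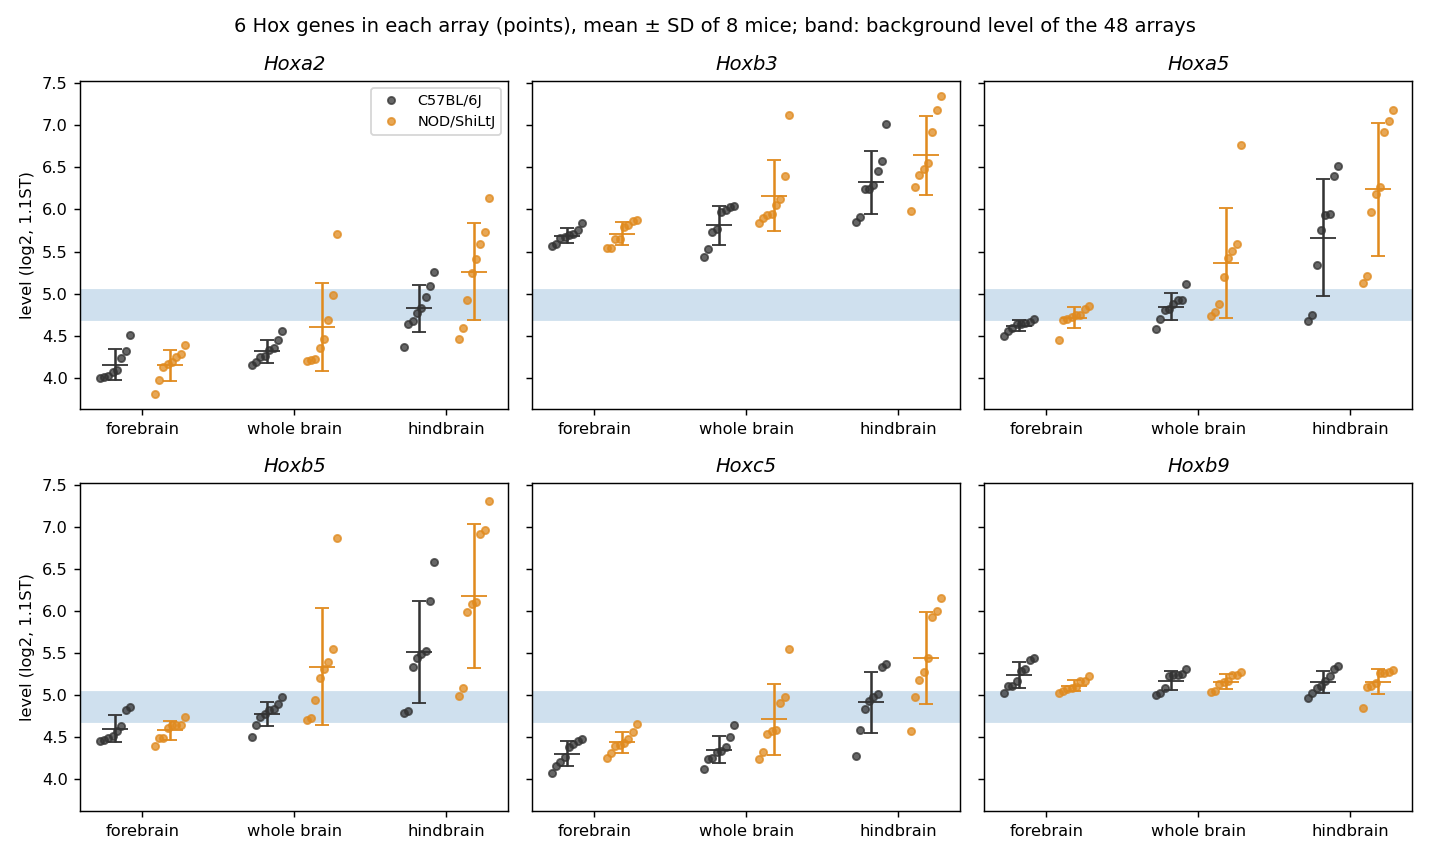
Log2 level (1.1ST) of Hoxa2, Hoxb3, Hoxa5, Hoxb5, Hoxc5 and Hoxb9 in each array (points) by region and strain, with the mean ± SD of 8 mice and a band for the background level described below. The hindbrains of Hoxa5 reach 7.18 against at most 4.86 in forebrain, and the regions lie over each other for Hoxb9.

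The same RNA on the 1.0ST gave a similar order of genes. The mean differences of the 36 genes on the 2 formats correlated with Pearson's r of 0.96 across genes, and groups 2 to 6 had a median mean difference of 0.35, from 0.08 to 0.98, against -0.08, from -0.19 to 0.02, in groups 7 to 13. Hoxa5 ranged from 5.61 to 6.18 in forebrain and from 6.03 to 8.16 in hindbrain, higher in 16 of 16 mice. Without surrogate variables 15 members were called higher, which were all the genes of groups 2 to 6, and 13 lower, where 34.3% of all clusters were higher and 42.8% lower. With surrogate variables 0 members were called higher and 3 lower, Hoxb6, Hoxb7 and Hoxc11, where 10.1% of all clusters were higher and 9.18% lower. At an unadjusted p below 0.05, 4 members differed in that limma fit. On this format 1 surrogate variable shared a fraction of 0.668 of its variance with region, where the highest on the 1.1ST was 0.202.

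Which of these genes carried signal at all was judged against olfactory and vomeronasal receptor genes, which serve sensory neurons of the nose. The files hold no detection call, so the 95th percentile of the 1180 receptor clusters of an array, between 4.69 and 5.04, was taken as background. These receptor genes are a yardstick and not true negatives. The part of probe affinity in lying above or below it was not tested. In hindbrain 6 members were above it in all 16 arrays: Hoxb1, Hoxb3, Hoxd3, Hoxa4, Hoxb7 and Hoxb9. In forebrain 5 were, the same genes without Hoxd3, and Hoxd3 was above it in 14 forebrains.

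Most of the genes that separated the regions crossed the background in hindbrains and whole brains but in no forebrain. Hoxb5 was above it in 15 hindbrains, 9 whole brains and 0 forebrains, and Hoxa5 in 14, 10 and 0. Hoxc5 was above it in 13 hindbrains, Hoxb4 and Hoxa6 in 12, Hoxb2 in 10, Hoxa2 and Hoxd4 in 9, Hoxa3 and Hoxc4 in 5 and Hoxb6 in 2, and none of these in a forebrain. In contrast, Hoxb1, Hoxb7 and Hoxb9 were above it in all 48 arrays and hardly differed between regions, with Hoxb1 medians of 5.44 and 5.45. In groups 7 to 13, Hoxd10 was above it in 3 hindbrains and 3 forebrains and Hoxd9 and Hoxd11 in 1 hindbrain each, and 16 of the 36 members were above it in no array.

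A background of this kind decides the count. At the 99th percentile 2 members remained in all hindbrains, Hoxb3 and Hoxa4, and against 122 clusters of Defb, Krtap and Tas2r genes 0 did. With 12 of 16 hindbrains asked for in place of 16, 11 members passed. On the 1.0ST 5 passed in all hindbrains, and Hoxb7 and Hoxd3 were not among them.

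Whole brain, the intact hemisphere, holds both tissues. Against forebrain 2 members were called, Hoxd3 (0.27, SE 0.09, limma FDR 0.0295) and Hoxa7 (0.12, SE 0.04, limma FDR 0.027), where 8.48% of all clusters were called higher. Hindbrain was called higher than whole brain for 15 members, where 26% of all clusters were. Hoxd3 had a whole brain median of 5.23, from 5.04 to 6.18, between its medians of 5.00 in forebrain and 5.64 in hindbrain, and was higher in whole brain than in forebrain in 15 of 16 mice.

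Hoxb5 in whole brain ranged from 4.51 to 6.87 with a median of 4.87. The value of 6.87 belonged to mouse DD656, whose hindbrain gave 5.09, so that the order of the regions was turned in this mouse. Its whole brain also held Slc6a5 at 11.23 and Tbr1, a gene of cortical neurons, at 7.96, the lowest Tbr1 of the whole brains. That Tbr1 value was above those of all 16 hindbrains, of which the highest was 7.62. The hindbrain of the mouse had a Tbr1 of 5.53. In Tbr1 both samples lay with their labels, and in Slc6a5 the whole brain lay within the hindbrain range of 9.88 to 11.45. Without this array and the forebrain of mouse DD678, 18 members were called between hindbrain and forebrain. Of these, 16 had been called before, and Hoxa11 and Hoxd12 had lost their call. Between whole brain and forebrain 2 were called, and between hindbrain and whole brain 14. No share of all clusters is given for that fit.

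**Figure D3:**
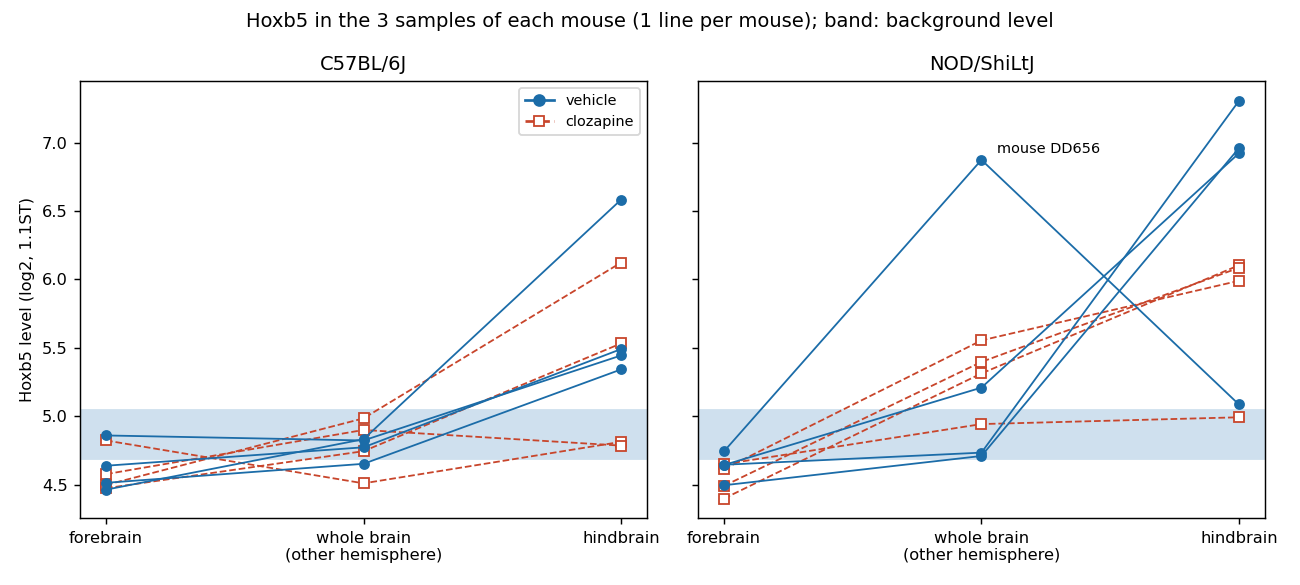
Hoxb5 (log2, 1.1ST) in forebrain, whole brain and hindbrain with a line for each of the 16 mice, by strain and treatment, and a band for the background level. The hindbrain is the highest in most mice, and mouse DD656 has its highest value, 6.87, in whole brain.

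The next question was whether the strains differed, in hindbrain and elsewhere. In hindbrain 12 of 36 members were called higher in NOD/ShiLtJ than in C57BL/6J and 0 lower, where 11.8% of all clusters were higher and 8.69% lower. They were Hoxa2, Hoxb2, Hoxa3, Hoxd3, Hoxa4, Hoxb4, Hoxc4, Hoxb5, Hoxc5, Hoxb6, Hoxb7 and Hoxa9. Without surrogate variables 8 were called, where 9.33% of all clusters were higher, and Hoxa2, Hoxb2, Hoxb7 and Hoxa9 dropped out.

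Hoxb5 ranged in hindbrain from 4.79 to 6.58 in C57BL/6J with a median of 5.47 and from 4.99 to 7.30 in NOD/ShiLtJ with a median of 6.09 (fitted difference 0.73, SE 0.25, limma FDR 0.0211). Hoxc5 ranged from 4.28 to 5.37 with a median of 4.95 and from 4.58 to 6.16 with a median of 5.36 (fitted difference 0.53, SE 0.17, limma FDR 0.0148). The strains overlapped widely for both genes. Hoxa5 had medians of 5.85 and 6.23 and did not pass (fitted difference 0.61, SE 0.25, limma FDR 0.0584).

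Hoxa4 was the member with the cleanest separation. It ranged from 5.95 to 6.28 in the C57BL/6J hindbrains with a median of 6.20 and from 6.31 to 6.54 in the NOD/ShiLtJ hindbrains with a median of 6.39 (fitted difference 0.23, SE 0.07, limma FDR 0.012). It was the only 1 of the 36 members without overlap in that direction, which 1.7% of all clusters showed. Its forebrain ranges, 5.93 to 6.26 and 5.78 to 6.28, lay over each other. The 1.0ST did not repeat this separation. There the hindbrain ranges of Hoxa4 overlapped, at 8.16 to 8.35 in C57BL/6J and 8.13 to 8.66 in NOD/ShiLtJ. It did not pass on that format (fitted difference 0.016, limma FDR 0.511).

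Hoxc4 had hindbrain medians of 4.28 in C57BL/6J and 4.79 in NOD/ShiLtJ (fitted difference 0.48, SE 0.14, limma FDR 0.00612), and the C57BL/6J mice reached 5.02 and the NOD/ShiLtJ mice 5.70. Hoxb6 had medians of 4.21 and 4.58 (fitted difference 0.41, SE 0.11, limma FDR 0.00258), with overlapping ranges of 4.10 to 4.61 and 4.19 to 5.39. Hoxb4, Hoxd3, Hoxa2 and Hoxb2 had fitted differences between 0.35 and 0.52, and Hoxa3, Hoxb7 and Hoxa9 between 0.18 and 0.25. Hoxa9 was above background in no array.

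**Figure D4:**
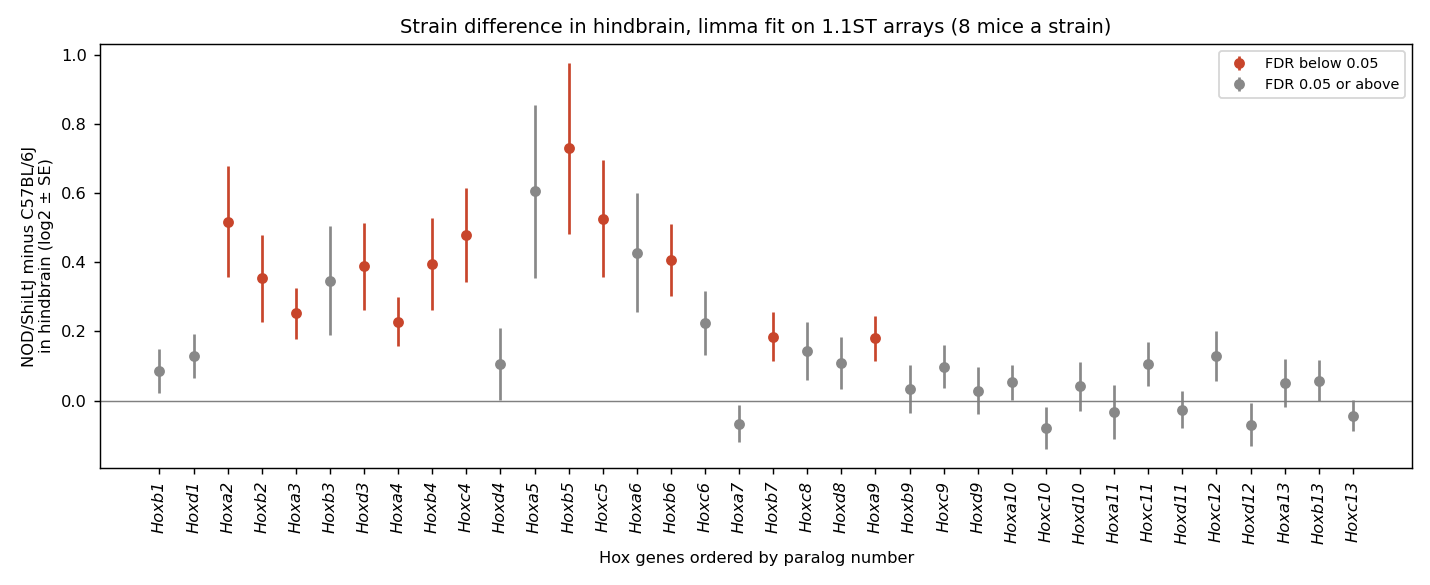
NOD/ShiLtJ minus C57BL/6J in hindbrain (log2, limma estimate ± SE, 1.1ST, 8 mice a strain) of the 36 Hox genes ordered by paralog number, red where the FDR is below 0.05. The 12 called genes all lie above 0, with Hoxb5 at 0.73 the highest.

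Single mice carried much of this comparison. The mean of the 15 genes of groups 2 to 6 in hindbrain ran from 4.68 to 5.46 in C57BL/6J with a median of 5.04 and from 4.88 to 6.10 in NOD/ShiLtJ with a median of 5.35, and in forebrain from 4.52 to 4.74 and from 4.54 to 4.71. The NOD/ShiLtJ mice DD659, DD657 and DD677, all given vehicle, had the highest hindbrain means, at 6.10, 5.76 and 5.74. Mouse DD656, also NOD/ShiLtJ on vehicle, was among the lowest at 4.88. The count of called members lay between 6 and 16 when 1 mouse was left out, and it was 6 without BB703, DD657 or DD659, 7 without BB702 and 8 without BB708 or DD677. The main fit shares its estimate of the spread over all regions, although hindbrains varied more in these genes. Hoxa2, for example, had an SD of 0.18 in forebrain and 0.49 in hindbrain. A fit of the hindbrains alone called 4 members, Hoxa3, Hoxa4, Hoxc4 and Hoxc5. Hoxb5 and the other members called above did not pass in it.

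Within treatments, 15 of 15 genes of groups 2 to 6 were higher in NOD/ShiLtJ hindbrain among vehicle mice, with a median of 0.53, and 14 of 15 among clozapine mice, with a median of 0.21. With 4 mice per strain in each, 0 members were called by limma within either treatment, and 12 in vehicle and 3 in clozapine mice had an unadjusted p below 0.05. Both medians had the sign of the pooled comparison. Genes are not independent replicates, so the counts of signs are a description. No share of all clusters is given beside the counts within treatments, in hindbrains alone or with a mouse left out, so whether they are unusual cannot be told.

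Markers of region were set beside the strain difference. Slc6a5 had hindbrain medians of 10.46 in C57BL/6J and 11.16 in NOD/ShiLtJ, a fitted difference of 0.48 that did not pass (SE 0.36, limma FDR 0.264). Tbr1 had medians of 5.63 and 4.92 and was called lower in NOD/ShiLtJ (limma FDR 0.00284). Of the lists, 3 of 5 telencephalon markers were called lower in NOD/ShiLtJ hindbrain, where 8.69% of all clusters were, and 1 of 8 medulla and pons markers higher, near the 11.8% of all clusters. Of the others, 1 of 9 midbrain and 1 of 7 meninges and fibroblast markers were called higher, and 2 of 8 cerebellum and 1 of 6 choroid plexus markers lower. The mean of the medulla and pons markers ran from 6.92 to 7.77 in C57BL/6J and from 7.35 to 7.95 in NOD/ShiLtJ, and that of the telencephalon markers from 5.72 to 6.98 and from 5.53 to 6.30. Their part in the Hox differences was not tested.

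Hoxb5 followed Slc6a5 from mouse to mouse in NOD/ShiLtJ, and in C57BL/6J the relation did not pass. Over the 8 NOD/ShiLtJ hindbrains Pearson's r was 0.96 (exact permutation p = 0.00134) and Spearman's rho 0.90 (exact permutation p = 0.00456), with Benjamini-Hochberg values of 0.00804 and 0.0274 over 6 relations. Without the 2 mice farthest from the median of Slc6a5, r was 0.92. Over the 8 C57BL/6J hindbrains r was 0.70 (exact permutation p = 0.0608, adjusted 0.182) and rho 0.67 (exact permutation p = 0.0831, adjusted 0.23), and r fell to 0.50 without the 2 farthest mice.

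With the other markers no relation passed. For Slc6a3, the dopamine transporter of midbrain neurons, r was -0.50 in NOD/ShiLtJ (exact permutation p = 0.216) and -0.26 in C57BL/6J (exact permutation p = 0.531). For Tbr1 r was -0.35 in NOD/ShiLtJ (exact permutation p = 0.373) and -0.60 in C57BL/6J (exact permutation p = 0.0978). These relations were chosen after the values had been seen, so the adjusted values do not cover the choice of genes.

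**Figure D5:**
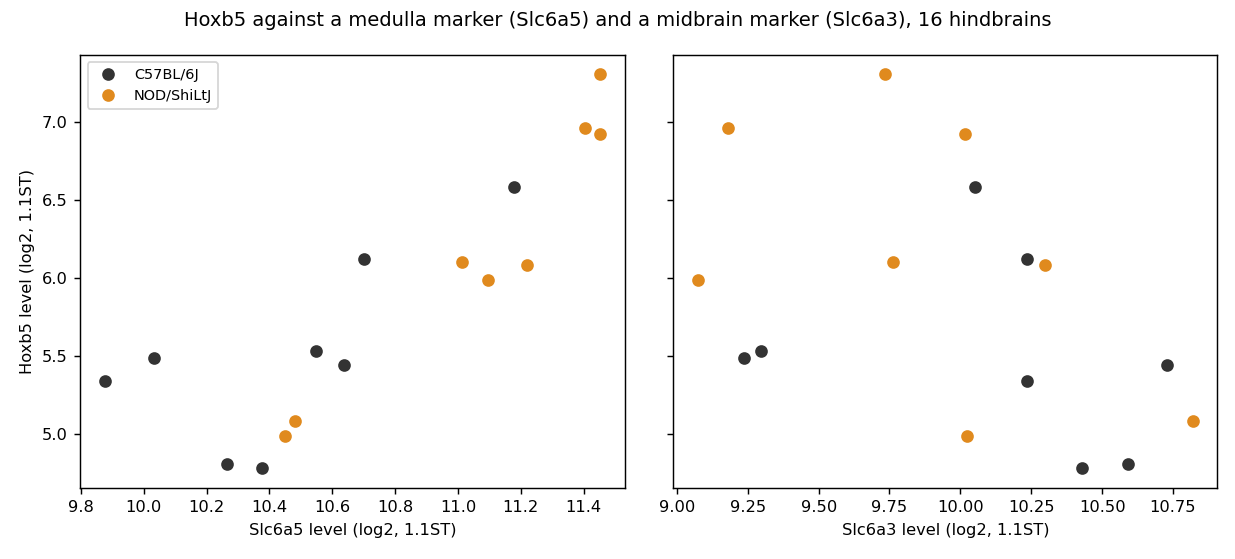
Hoxb5 level in each of the 16 hindbrains (log2, 1.1ST) against the level of Slc6a5 (left) and of Slc6a3 (right), coloured by strain. Hoxb5 rises with Slc6a5 in NOD/ShiLtJ, with Pearson's r of 0.96, and in C57BL/6J r was 0.70 and did not pass. With Slc6a3, r was -0.50 in NOD/ShiLtJ and -0.26 in C57BL/6J.

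The 1.0ST repeated the direction in part. It called 9 members higher and 1, Hoxd12, lower in NOD/ShiLtJ hindbrain, where 12.8% of all clusters were higher, and the mean strain differences of the 36 genes on the formats had r = 0.96 across genes. Without surrogate variables 0 were called by limma on the 1.0ST, and 9 had an unadjusted p below 0.05. No share of all clusters is given for that fit. In forebrain on the 1.1ST 0 members were called, 1 at an unadjusted p below 0.05 by limma, where 17.7% of all clusters were called. In whole brain 1 was, Hoxb2 (fitted difference 0.37, limma FDR 0.013), where 18% of all clusters were called.

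Whether the strain difference itself changed with region was asked by the interaction. Hoxb6 was the single member called (0.51, SE 0.14, limma FDR 0.0299), where 2.29% of all clusters were, and 11 members had an unadjusted p below 0.05. Its NOD/ShiLtJ medians were 4.13 in forebrain and 4.58 in hindbrain, and its C57BL/6J medians were 4.21 in both. Without surrogate variables 0 were called by limma, with 7 at an unadjusted p below 0.05, and without the 2 arrays that stood apart 0 were called. The strain difference in hindbrain is therefore not shown to exceed that in forebrain for the other members. Taken by strain, hindbrain was called higher than forebrain for 18 members in NOD/ShiLtJ, where 24.4% of all clusters were, and for 4 in C57BL/6J, where 22% were. Without surrogate variables, 15 were higher and 0 lower in NOD/ShiLtJ, where 28.4% and 21.5% of all clusters were, and 12 were higher and 6 lower in C57BL/6J, where 26.6% and 24.7% were.

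No Hox gene separated clozapine from vehicle at 3 h past the threshold. Over the 3 regions 0 members were called by limma, where 2.92% of all clusters were, and 2 had an unadjusted p below 0.05 in limma, as 3 had on the 1.0ST. The fitted differences ran from -0.20 in Hoxa5 to 0.09 in Hoxa10, the latter with the lowest FDR, 0.0687.

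Hox proteins bind DNA with the TALE partners Pbx, Meis and Pknox. Of 8 measured cofactors, 2 were called higher and 3 lower in hindbrain, where 27.5% of all clusters were higher and 19.7% lower, with a median fitted difference of -0.09 against 0.02 of all clusters. Without surrogate variables the counts were 3 and 2, where 33.1% of all clusters were higher and 32.5% lower. Meis1 ranged from 7.07 to 7.97 in forebrain and from 8.13 to 9.20 in hindbrain (fitted difference 0.68, SE 0.10, limma FDR 5.32e-08), and Pbx3 had medians of 9.48 and 9.80 (limma FDR 0.000316). Pknox2 ranged from 8.53 to 9.06 in forebrain and from 7.64 to 8.15 in hindbrain, a fitted difference of -0.90, and Meis2 had one of -0.64. Meis1 and Pknox2 had no overlap between regions, in opposite directions. Pbx4 had a fitted difference of -0.10.

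Of 15 measured upstream regulators, which set Hox borders in the embryo, 3 were called higher and 4 lower, near the shares of 27.5% and 19.7% of all clusters, with a median of 0.04. Gbx2, which places the border of midbrain and hindbrain, ranged from 4.69 to 5.41 in forebrain and from 5.78 to 6.51 in hindbrain (fitted difference 0.79, SE 0.10, limma FDR 2.44e-09). Aldh1a2, which makes retinoic acid, had medians of 6.91 and 7.77 (fitted difference 0.79, limma FDR 1.3e-05), and in hindbrain it was also called higher in NOD/ShiLtJ (0.64, limma FDR 0.00186). Meninges also make this enzyme, and the meninges and fibroblast markers had a median fitted difference of 0.16 between regions and 0.16 between strains, whose part was not tested. Gdf11 had a fitted difference of 0.36. Of the lower ones, Egr2, a gene of hindbrain segments in the embryo and of neuronal activity in the adult, had medians of 5.95 in forebrain and 4.90 in hindbrain (fitted difference -0.87, limma FDR 2.68e-06). The retinoic acid receptors Rarb and Rara had fitted differences of -0.71 and -0.31.

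Polycomb proteins and their partners keep Hox genes silent where they are not used, and the list also held demethylases that act against them. Of 18 measured, 1 was called higher and 7 lower in hindbrain, against 27.5% and 19.7% of all clusters, with a median of -0.06. Without surrogate variables these counts were 4 and 6, where 33.1% of all clusters were higher and 32.5% lower. The number lower was then near the share of all clusters. The median was -0.0028, and that of all clusters -0.013. Rnf2, a ubiquitin ligase of the first complex, ranged from 8.87 to 9.17 in forebrain and from 8.36 to 8.79 in hindbrain, without overlap (fitted difference -0.48, SE 0.04, limma FDR 3.88e-13). Pcgf2 and Phc2 of the same complex had fitted differences of -0.38 and -0.29, and Ezh2, the methyltransferase of the second complex, of 0.10 (limma FDR 0.0393).

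Of 18 measured genes in or beside the Hox clusters, 6 were called higher and 3 lower, near the shares of 27.5% and 19.7% of all clusters, with a median of 0.03. Evx2, a homeobox gene at the end of the Hoxd cluster, ranged from 5.24 to 5.65 in forebrain and from 5.41 to 6.02 in hindbrain (fitted difference 0.34, SE 0.07, limma FDR 3.34e-05). Evx1, its counterpart beside Hoxa, and Skap2, an adaptor gene beside Hoxa, had fitted differences of 0.19 and 0.21. Snx10 and Snx11, sorting nexins beside Hoxa and Hoxb, had -0.25 and -0.20, and Smug1, a DNA glycosylase beside Hoxc, had -0.11. Mir615, inside Hoxc, was called at limma FDR 0.018 on a mean difference of -0.01. Mir196a-1, Mir196a-2 and Mir196b were not called and were above background in no hindbrain.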

How the data were processed

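The authors put RNA of 48 samples on each of 2 Affymetrix array formats and deposited log2 values of 28310 transcript clusters after RMA in Affymetrix Expression Console 1.1. RMA corrects background, makes the distributions of all arrays alike and summarises probes, so low values are compressed and values are relative within a format. Strain differences at probe sequences were not examined, and array batch and hemisphere were not in the labels. Precision is limited by the number of arrays.

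Clusters with 1 symbol of Hoxa to Hoxd and a number were taken. These members, the gene lists and the tests were chosen with earlier results of these data known. All clusters were fitted on the 48 1.1ST arrays with limma 3.58.1 (R 4.3.3, statmod 1.5.0), with a mean for each strain and region, treatment, 5 surrogate variables each drawn from 1000 clusters, and mouse as a random block. This follows the study's mixed model without batch, but shares the correlation within a mouse, 0.031, over all clusters. The study fitted a random mouse effect to each transcript. The FDR used the study's formula over all clusters, with calls at 0.05. The fit was also run on simulated data with independent noise, equal in all groups. That run held no mouse effect, no hidden pattern and no wider spread in hindbrain, so it does not test how these affect the calls. Exact permutation tests used scipy 1.17.1 in Python 3.11.15, two-sided, and figures matplotlib 3.10.9. Every member was accounted for, members above background were given values, and from each surrounding list up to 3 called genes in each direction were named, with genes inside the clusters. Arrays of the regions of a mouse pair by the mouse name in the labels. The residuals of 2 regions of a mouse correlated at 0.0321, and those of different mice at -0.00164. Alternatives were the 1.0ST, no surrogate variables, no block or a fixed block, median centring, a filter on low values, Benjamini-Hochberg adjustment, other backgrounds, and leaving out each mouse. The limma p-values measure the spread of arrays within groups of strain and region. For treatment, the 3 arrays of a mouse counted almost as independent in this fit. The permutation p-values rest on the mice of a strain.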

Additional observations from a re-analysis of the deposited data

Results flagged for a closer look

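Over 20 Hox genes and 120 groups of 8 arrays, 14 groups held a highest or lowest mouse far from the rest by Dixon's test. In independent groups chance does this in about 1 in 20. These groups share their arrays across genes, so the count cannot be set against that rate. The whole brain of mouse DD656 was the highest of the NOD/ShiLtJ whole brains in 7 of these. It had log2 values of 5.39 for Hoxb2 (next 4.84), 7.13 for Hoxb3 (next 6.40), 6.18 for Hoxd3 (next 5.63), 6.76 for Hoxa5 (next 5.59), 6.87 for Hoxb5 (next 5.55), 5.82 for Hoxa6 (next 5.11) and 4.90 for Hoxb6 (next 4.35). The same array was high in Slc6a5 and low in Tbr1, and their part was not tested.

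The whole brain of mouse DD678 was high in Hoxb1 at 5.62 (next 5.48), and its hindbrain was low in Hoxb9 at 4.85 (next 5.10). Mouse BB687, C57BL/6J, was low in Hoxa3 in forebrain at 4.35 (next 4.53) and high in Hoxc4 in hindbrain at 5.02 (next 4.54). Of the NOD/ShiLtJ mice, DD676 was high in Hoxc4 in forebrain at 4.73 (next 4.14), DD659 was high in Hoxd4 in hindbrain at 5.74 (next 5.04) and DD658 was low in Hoxa5 in forebrain at 4.45 (next 4.68).

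The strain difference of Hoxb6 was larger in hindbrain than in forebrain by 0.51 in the interaction term of the limma fit. It was not called without surrogate variables, on the 1.0ST or without the 2 arrays that stood apart. It also lost its call in 10 of the 16 fits that left out a mouse.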

How the results depend on the processing

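Counts of called Hox genes moved with the array format, the surrogate variables, the filter on low values and single mice, and the cause was not tested. No share of all clusters is given beside the counts of this section. Whether they changed for Hox genes or for all clusters alike cannot be told from them. On the 1.0ST with surrogate variables, counts were 3 between hindbrain and forebrain, 0 between whole brain and forebrain, 3 between hindbrain and whole brain and 0 for the interaction, the rho of paralog number with the fitted difference was -0.0052, and 10 genes of the surrounding lists were called, where the 1.1ST gave 29. There the fitted difference between hindbrain and forebrain turned to -0.075 in Hoxb1, -0.020 in Hoxb2, -0.062 in Hoxa3, -0.053 in Hoxb3, -0.12 in Hoxd3, -0.12 in Hoxb4, -0.050 in Hoxc4, -0.11 in Hoxd4, -0.066 in Hoxa5, -0.22 in Hoxb5, -0.014 in Hoxc5, -0.30 in Hoxa6, -0.36 in Hoxb6, -0.077 in Hoxa7, -0.11 in Hoxa11 and -0.11 in Hoxd12, and that of Hoxd3 between whole brain and forebrain to -0.0055. On the 1.0ST without surrogate variables, chosen after seeing the data, 28 were called between hindbrain and forebrain, 0 between strains and 0 for the interaction, with -0.12 in Hoxb1, -0.022 in Hoxa7, -0.12 in Hoxa11 and -0.13 in Hoxd12. On the 1.1ST without them, 8 were called between whole brain and forebrain and 0 for the interaction, and Hoxd12 had -0.0023. Among clusters with a mean above 5, where fewer genes were tested, 1, 0 and 1 were called between the regions (hindbrain and forebrain, whole brain and forebrain, hindbrain and whole brain) and 4 between strains. Median centring called 11 between whole brain and forebrain, and Benjamini-Hochberg adjustment 8 between hindbrain and whole brain. With mouse as a fixed replicate block, 5 were called between hindbrain and whole brain and 16 between hindbrain and forebrain, and with no block 17. Between strains, hindbrains alone gave 4, vehicle mice 0 and clozapine mice 0. The interaction gave 7 without the arrays high in Gabra6 and 0 without the 2 arrays that stood apart. Background counts in hindbrain were 2 at the 99th percentile, 0 against Defb, Krtap and Tas2r genes and 11 for at least 12 of 16 arrays.

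Leaving out 1 mouse gave 2 to 18 between hindbrain and forebrain (2 without DD676, where Hoxb6 had -0.016, its lowest, with 0.26 without DD656 its highest), 0 to 4 between whole brain and forebrain (0 without DD657 or DD678, 1 without BB707, BB708, DD658 or DD676, 4 without BB701, BB702 or DD659), 0 to 16 between hindbrain and whole brain (0 without DD676, 4 without BB702, 8 without DD675, 9 without BB703), 6 to 16 between strains, 0 to 10 for the interaction (10 without DD676, 7 without DD678, 4 without DD675, 3 without DD656, 2 without BB701, 0 without BB687, BB702, BB703, BB708, DD657, DD658, DD659 or DD677) and 0 to 3 for clozapine (3 without DD675, 1 without DD659). Without surrogate variables the ranges were 19 to 24, 3 to 10, 15 to 19 and 4 to 14 for the first 4 of these comparisons.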
